A study of Mus musculus with 10 samples.

Results

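The complement components C4b, C4a, C1qa, C1qb and C1qc are 5 of the 19505 genes measured here in hypothalamus from male mice of the inbred strain C57BL/6J. They were picked by gene symbol, with their differences between the ages in view, and each had 1 probe set, so the rule of keeping the probe set with the highest mean was not needed. A gene whose population standard deviation (SD) over the 10 arrays was under 0.01 on the log2 scale was treated as a level only. Of the 5 genes, 4 met that minimum, with SDs from 0.16 (C1qb) to 0.58 (C4b), and C1qc did not, at 0.0032. The Young group held 5 samples from mice aged 24 weeks and the Old group 5 from mice aged 138 weeks. The labels name no mutation or treatment in either group, and all mice had free access to food and water. Each sample was hybridised to 1 Clariom S Mouse array, which carries oligonucleotide probes and is read in 1 colour. The labels do not state that samples came from separate animals, so p-values measure only the spread between samples, which may be technical.

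Complement is a cascade of plasma proteins that marks targets for removal. C1q recognises the target and is built from the A, B and C chains that C1qa, C1qb and C1qc encode, 3 genes that lie side by side on chromosome 4. Bound C1q activates the proteases C1r and C1s, which cut C4, and the C4 fragment left on the surface helps to form the enzyme that cuts C3. In the brain C1q is made chiefly by microglia, the resident macrophages, while C4 is made by astrocytes and oligodendrocytes among other cells, and complement tags some synapses for removal by microglia. C4b encodes mouse C4. C4a, on chromosome 17 with it, is the related gene formerly called Slp, for sex-limited protein, and the RefSeq table used here (GRCm38.p6) classes it as a transcribed pseudogene. The probe sets were TC1700002814.mm.2 (C4b), TC1700002815.mm.2 (C4a), TC0400003794.mm.2 (C1qa), TC0400003792.mm.2 (C1qb) and TC0400003793.mm.2 (C1qc). The 2 C4 genes are similar in sequence, so either probe set may also take signal from the other gene's transcript.

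Of the 5 genes, 2 (C1qb and C1qc) were found in the RefSeq promoter table. Their upstream sequences are shown because the 2 genes are neighbours, yet the deposited values of C1qb vary between arrays and those of C1qc hardly do. How the deposited values were made is not known, so this contrast is not read as one of regulation. No link between it and the sequences was tested. Each is the 250 bases before the annotated start, read 5′ to 3′ on the minus strand of GRCm38.p6, at chr4:136886201-136886450 for C1qb and chr4:136892915-136893164 for C1qc. Capitals mark matches to 7 short motifs searched on both strands.
C1qb: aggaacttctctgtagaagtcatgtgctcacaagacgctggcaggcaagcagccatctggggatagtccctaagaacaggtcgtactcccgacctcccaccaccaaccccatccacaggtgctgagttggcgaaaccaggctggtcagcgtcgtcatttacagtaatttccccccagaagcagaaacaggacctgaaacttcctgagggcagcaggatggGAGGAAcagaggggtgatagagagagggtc
C1qc: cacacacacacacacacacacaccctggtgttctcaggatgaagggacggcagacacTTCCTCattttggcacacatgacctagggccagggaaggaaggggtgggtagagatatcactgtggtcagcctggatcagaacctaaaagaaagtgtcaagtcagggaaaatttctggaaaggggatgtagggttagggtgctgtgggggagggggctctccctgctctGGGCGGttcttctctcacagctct
Both windows held GAGGAA, a core bound by ETS factors such as the myeloid regulator PU.1, which was present in 23.3% of the 32851 windows of that length in the table. In C1qb it lay on the gene's strand, 30 to 25 bases before the start, and in C1qc on the opposite strand, 193 to 188 bases before it. The C1qc window also held the GC box GGGCGG (32.7% of windows), 24 to 19 bases before the start, which did not overlap the other match. Neither window held the TATA box TATAAA (12.4% of windows), the STAT palindrome TTCNNNGAA (7.02%), the AP-1 motif TGANTCA (6.75%), the E-box CACGTG (6.02%) or the interferon-stimulated response element, searched as 2 copies of TTTC with any 2 bases between (2.98%). GC content was 55.2% in C1qb and 54.0% in C1qc, against a median of 52.4% over all windows.

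The deposited numbers were taken to be log2 signal because they ran from 5.00 to 12.97. Their base is not named, and folds rest on that reading. For 98.6% of genes the values over the 10 arrays were nearly constant (19229 genes under the SD minimum, with a median SD of 1e-05 over all genes), and 276 genes varied. A level-only gene cannot show the size of a change. The difference of Old from Young was fitted to all 19505 genes in limma, with p-values adjusted by the Benjamini-Hochberg method over all of them, and "rose" or "fell" is used where that adjusted p was under 0.05. A second fit, called the varying-gene fit, held the 276 varying genes and no others. The 5 genes were proposed with their age differences in these arrays already known, so the differences and the p-values below describe these arrays and are not independent evidence. Of the 12 measured hypothalamic peptide genes, levels ran from 6.23 (Gnrh1) to 10.56 (Sst). Young 5 stood apart for the choroid plexus transcripts Ttr (12.44, against at most 7.97 in the other arrays) and Kcnj13, and Young 3 for the liver transcripts Alb and Mup2, so the age differences are also given without these 2 arrays.

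**Figure D1:**
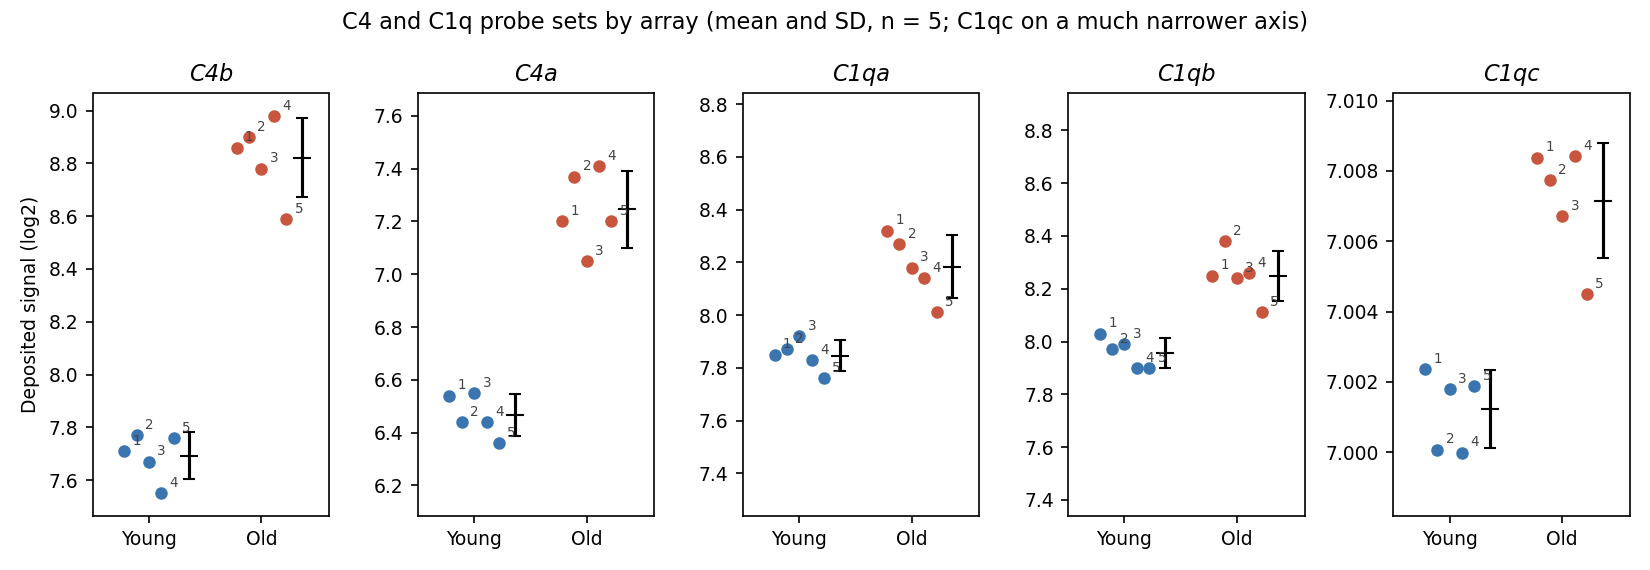
Deposited log2 signal of C4b, C4a, C1qa, C1qb and C1qc (vertical axes) in the 5 Young and 5 Old arrays, each point 1 array numbered by replicate, with the mean and SD beside it. Axes span the same width except that of C1qc, whose 10 values lie between 6.99999 and 7.00841; in every panel the lowest Old point lies above the highest Young point.

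C4b, the gene for the C4 protein that C1s cleaves, had the largest increase of the 276 varying genes. In the Young arrays its values were 7.71, 7.77, 7.67, 7.55 and 7.76 log2 (Young 1 to Young 5), and in the Old arrays 8.86, 8.90, 8.78, 8.98 and 8.59 (Old 1 to Old 5). The groups did not overlap: Old 5, the lowest Old array, stood 0.82 above Young 2, the highest Young array, a gap wider than the whole range of either group (0.21 in Young and 0.39 in Old). The mean rose from 7.69 ± 0.086 to 8.82 ± 0.15 (SD, n = 5), by 1.13 (SE 0.072), or 2.19-fold (limma adjusted p = 0.000371 over all genes; 2.56e-06 in the varying-gene fit).

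C4a, the Slp gene, followed at a lower amplitude and had the 8th largest increase among the varying genes. Its values were 6.54, 6.44, 6.55, 6.44 and 6.36 log2 in Young 1 to Young 5 and 7.20, 7.37, 7.05, 7.41 and 7.20 in Old 1 to Old 5. Old 3 was lowest among the Old arrays and still 0.50 above the highest Young array, Young 3. The mean rose from 6.47 ± 0.081 to 7.24 ± 0.14 (SD, n = 5), by 0.78 (SE 0.069), or 1.72-fold (limma adjusted p = 0.00241 over all genes; 2.73e-05 in the varying-gene fit).

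C1qa, the A chain of the recognition molecule, was higher in Old by a smaller amount. Its values were 7.85, 7.87, 7.92, 7.83 and 7.76 log2 in Young 1 to Young 5 and 8.32, 8.27, 8.18, 8.14 and 8.01 in Old 1 to Old 5. The groups did not overlap, but Old 5 came within 0.098 of Young 3, less than the range of the Young arrays (0.15). The mean was 7.85 ± 0.056 in Young and 8.19 ± 0.12 in Old (SD, n = 5), so Old exceeded Young by 0.34 (SE 0.056), which is 1.27-fold. It did not pass over all genes (limma adjusted p = 0.0719) and passed in the varying-gene fit (limma adjusted p = 0.00146).

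C1qb, the B chain, showed nearly the same. Its values were 8.03, 7.97, 7.99, 7.90 and 7.90 log2 in Young 1 to Young 5 and 8.25, 8.38, 8.24, 8.26 and 8.11 in Old 1 to Old 5. Old 5 was again the lowest Old array, 0.081 above Young 1. The mean was 7.96 ± 0.058 in Young and 8.25 ± 0.097 in Old (SD, n = 5), higher in Old by 0.29 (SE 0.048), or 1.22-fold (limma adjusted p = 0.0719 over all genes; 0.00148 in the varying-gene fit). Old 5 was the lowest Old array for both chains, so leaving it out had to widen both differences. Without it C1qa differed by 0.38 and C1qb by 0.33, and both passed over all genes (limma adjusted p = 0.0137 and 0.018). Without any 1 of the other 9 arrays neither chain passed over all genes. The limma adjusted p then ran from 0.116 to 0.204 for C1qa and from 0.0819 to 0.204 for C1qb.

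C1qc, the C chain, was a level only, near 7 log2. Its 10 deposited values covered 0.0084 log2 in all, from 6.99999 (Young 4) to 7.00841 (Old 4), with 7.00236 (Young 1) the highest in Young and 7.00450 (Old 5) the lowest in Old. The ages did not overlap on this narrow scale, and the difference of 0.0059 (SE 0.00083) passed over all genes (limma adjusted p = 0.0289) although it is 1.004-fold; leaving out Old 5 kept this call, and leaving out any of the other 9 arrays ended it. Measured in within-group SDs the difference was 4.2 for C1qc, 3.6 for each of C1qa and C1qb, 6.7 for C4a and 9.3 for C4b. How far the deposited values of C1qc, or of the other 4 genes, were shrunk is unknown, so no size is read from it.

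In the fit to all genes 3 of the 5 genes passed with higher values in Old (C4b, C4a and C1qc) and 0 with lower, where 0.19% of all genes rose and 0.0308% fell. In the varying-gene fit 4 of 4 rose, where 24.6% of the varying genes rose and 11.2% fell. After quantile normalization all 5 passed, where 0.79% of all genes rose and 33.1% fell. After centring each array on its median all 5 passed too, where 0.241% of genes rose. Every Old value lay above every Young value in all 5, against 0.836% of all genes, 20.7% of varying genes and 0.551% of level-only genes. Because the genes were chosen with this contrast in view, nothing is read from these shares. The 2-sided exact permutation test over all labellings of the 10 arrays gave p = 0.00794 for each of the 5 genes, the smallest that 5 against 5 allows. Without Young 3 and Young 5 the differences were 1.14 for C4b and 0.77 for C4a, which still passed over all genes (limma adjusted p = 0.0158 and 0.0355). They were 0.34 for C1qa and 0.28 for C1qb, which did not pass over all genes (limma adjusted p = 0.376 and 0.433) and passed in the varying-gene fit (limma adjusted p = 0.00794 and 0.0119).

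**Figure D2:**
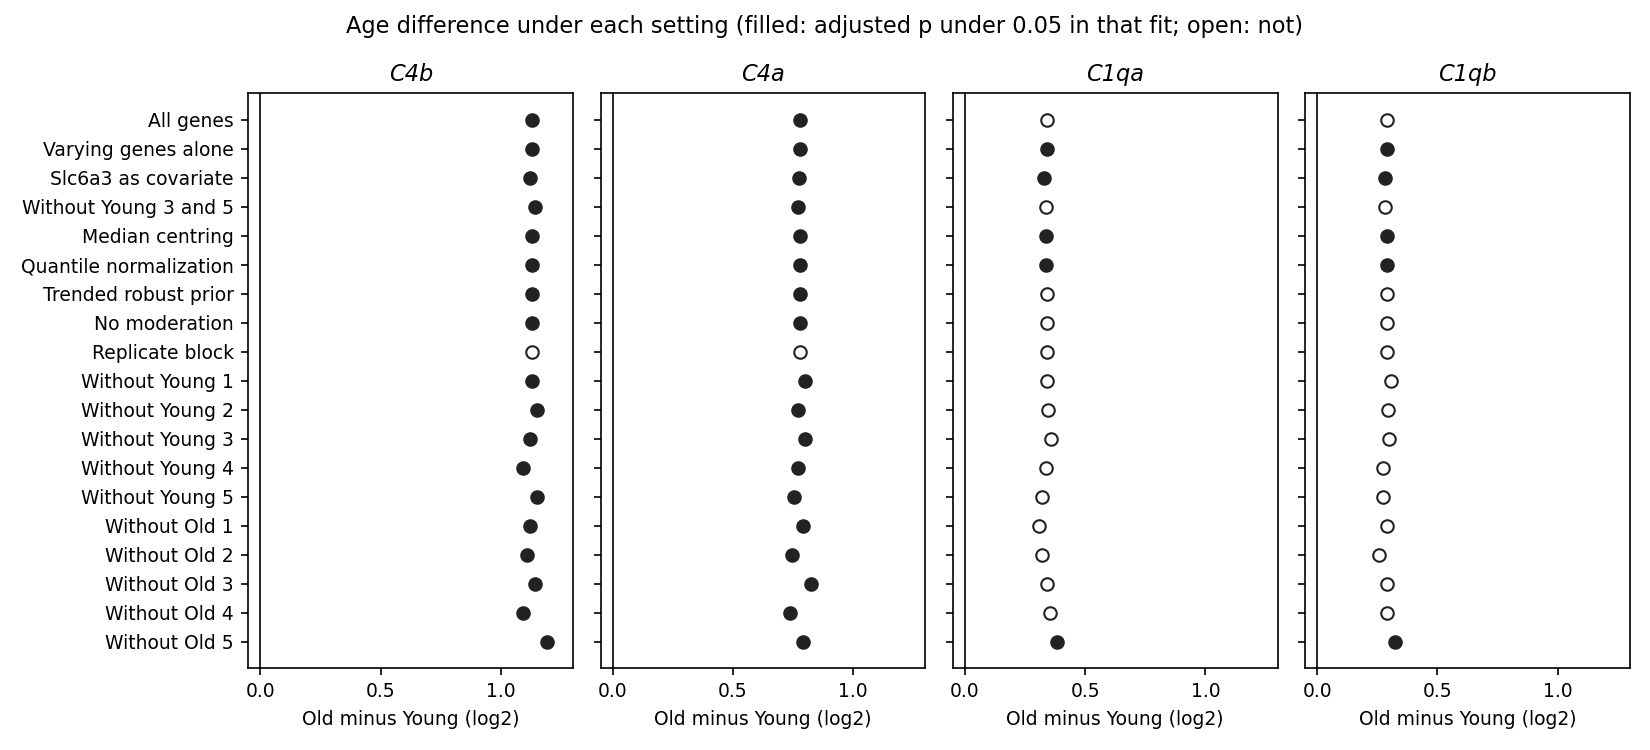
Old minus Young difference in log2 units (horizontal axes) of C4b, C4a, C1qa and C1qb under each processing setting (rows), filled where the adjusted p of that fit was under 0.05. Points stay between 1.09 and 1.19 for C4b and between 0.74 and 0.83 for C4a. Both genes are open in the replicate block alone, which gives the arrays of each number a term of their own (limma adjusted p = 0.0508 and 0.126). For C1qa and C1qb the points hardly move and the call differs between more settings.

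The deposited age differences of the 4 varying genes were not all of the same size. For each pair, the difference of the 2 genes within an array was compared between ages by a 2-sided exact permutation test, with p adjusted over the 6 pairs; the offset between 2 probe sets has no meaning, and only its change with age is read. C4b minus C4a was 1.17, 1.33, 1.12, 1.12 and 1.40 in Young 1 to Young 5 and 1.66, 1.53, 1.73, 1.57 and 1.39 in Old 1 to Old 5. Only Old 5 fell within the Young range, lying just below Young 5, and the mean was larger in Old by 0.35 (SE 0.081; exact permutation p = 0.0159, adjusted p = 0.019). In the deposited values the age difference of C4b thus exceeded that of C4a by more than the spread between arrays. Shared signal between the 2 probe sets, or unequal shrinkage of their values, would change this quantity, and shrinkage bears on every pair below.

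In the deposited values each C4 gene also differed more between the ages than each C1q chain. C4b exceeded C1qa by 0.79 (SE 0.072) and C1qb by 0.84 (SE 0.058) in its age difference, and C4a exceeded them by 0.44 (SE 0.083) and 0.49 (SE 0.062). In these 4 pairs the ages did not overlap, with an exact permutation p of 0.00794 and an adjusted p of 0.0119 in each. The genes were picked with their age differences known, so the p-values of the pairs describe these arrays and are not independent evidence. How often pairs of other genes separate the ages was not counted. C1qa minus C1qb was -0.18, -0.10, -0.07, -0.07 and -0.13 in Young 1 to Young 5 and 0.08, -0.11, -0.06, -0.12 and -0.10 in Old 1 to Old 5. The ages overlapped, though Old 1 and, by little, Old 3 lay above all Young arrays. No difference between the 2 chains was detected (0.050, SE 0.041, exact permutation p = 0.31, adjusted p = 0.31).

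**Figure D3:**
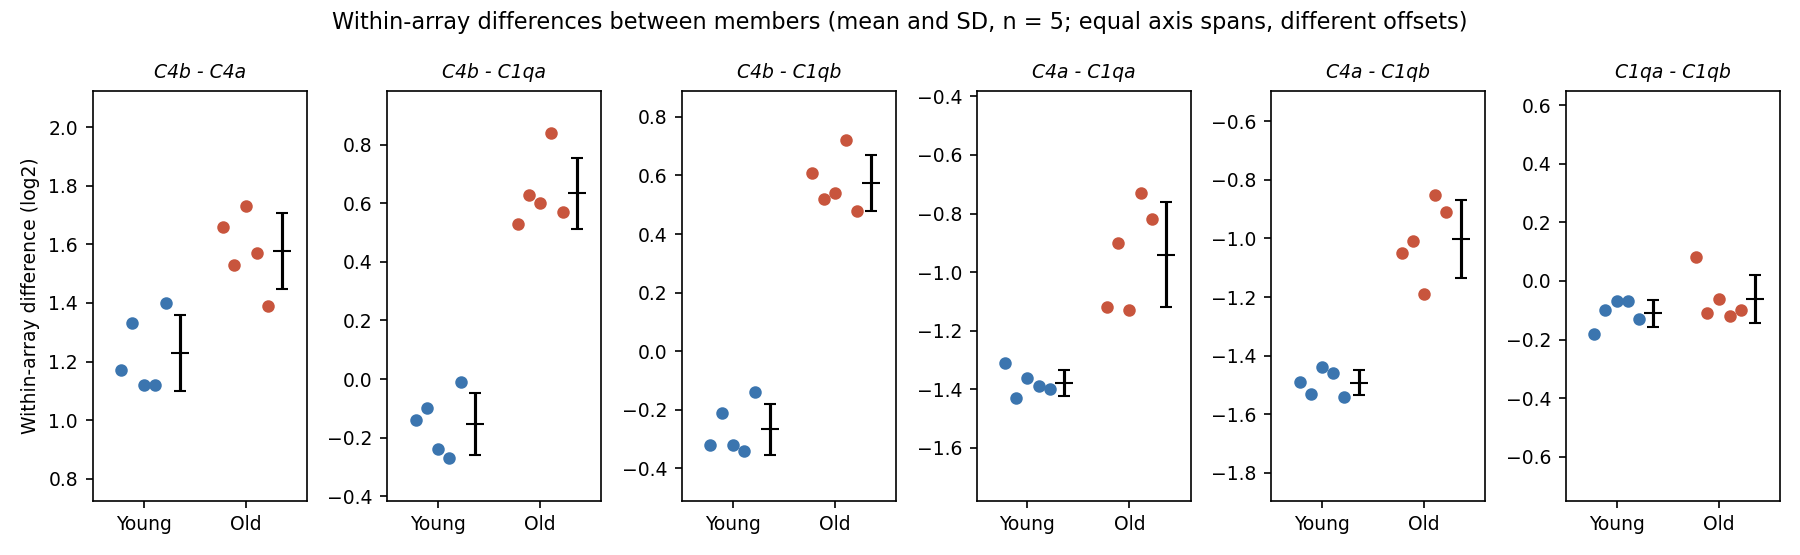
Difference in log2 signal between 2 genes within the same array (vertical axes, equal spans with different offsets) for the 6 pairs of varying genes, by age, with mean and SD (n = 5). The ages separate in the 4 pairs of a C4 gene with a C1q chain, touch in C4b minus C4a and overlap in C1qa minus C1qb.

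The 4 genes also ordered the arrays differently within an age. Old 4 was highest for C4b and C4a, Old 1 for C1qa and Old 2 for C1qb; Old 5 was lowest for C4b, C1qa and C1qb, and Old 3 for C4a. Among the Young arrays, Young 5 was lowest for C4a, C1qa and C1qb but second highest for C4b, where Young 4 was lowest. After each age mean was removed, the Pearson correlation over the 10 arrays was 0.73 between C1qa and C1qb, 0.66 between C4b and C1qb, 0.56 between C4a and C1qb, 0.47 between C4b and C1qa, 0.42 between C4b and C4a and 0.24 between C4a and C1qa. The arrays share their normalization and these values are a description. Over these 10 arrays the closest pair was the 2 C1q chains. Old 5 lay farthest from its age mean for C1qa (-0.173), C1qb (-0.139) and C4b (-0.233). The order of the pairs thus leans on 1 array, and how far it does was not tested.

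Other genes were ranked by their Pearson correlation with each member over the 10 arrays, among the 272 varying genes that are not members. This measure is dominated by the age difference and is given as a description. For C4b the nearest were Ctss (cathepsin S, a microglial protease, r = 0.99), H2-D1 (an MHC class I heavy chain, 0.98), Ly86 (a myeloid partner of a Toll-like receptor homologue, 0.98), Mpeg1 (a pore protein of macrophages, 0.97) and Pcdhb2 (a beta protocadherin, 0.97). C4a was nearest to Lag3 (an inhibitory receptor also found on microglia, 0.98), Mpeg1 (0.98), Ctss (0.97), Serpina3n (a protease inhibitor of reactive astrocytes, 0.96) and H2-K1 (an MHC class I heavy chain, 0.96).

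The C1q chains had other neighbours. Both were nearest to Apod, which encodes the lipid carrier apolipoprotein D (r = 0.97 with C1qa and 0.98 with C1qb). Next for C1qa came Gstm1 (a glutathione transferase, 0.94), Ftl1 (ferritin light chain, 0.94), Lyz2 (a myeloid lysozyme, 0.93) and Fbln5 (an elastic fibre protein, 0.93). For C1qb they were Fcgr3 (an Fc receptor of microglia, 0.96), Fbln5 (0.96), Psat1 (an enzyme of serine synthesis, 0.95) and Ftl1 (0.94).

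With the age means removed the nearest genes changed. For C4b they were Syn1 (a synaptic vesicle protein, r = 0.72), Fcgr3 (0.69), Ly86 (0.68), Ctss (0.68) and Gpr37l1 (a glial receptor, 0.68), and for C4a Lag3 (0.76), Psat1 (0.74), Fth1 (ferritin heavy chain, 0.74), Ntsr2 (an astrocyte neurotensin receptor, 0.72) and Aldoc (an astrocyte glycolytic enzyme, 0.68). For C1qb they were Aldh1a1 (a retinaldehyde dehydrogenase found in dopamine neurons, 0.93), Apod (0.91), Fbln5 (0.88), Syn1 (0.87) and Slc10a4 (a vesicular protein of monoamine and cholinergic neurons, 0.86). For C1qa they were Gstm1 (0.90), Cplx1 (a synaptic protein, 0.90), Slc6a3 (the dopamine transporter, 0.89), Gpr37l1 (0.88) and Th (tyrosine hydroxylase, the first enzyme of dopamine synthesis, 0.88). Syn1 was lower in Old by 0.15 and Ntsr2 by 0.30 while C4b, C4a and C1qb were higher, so these genes followed the members between arrays of an age and opposed them between the ages.

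Slc6a3 and Th are made by dopamine neurons. Slc6a3 fell into 2 separate ranges. It was 8.26 to 8.90 log2 in Young 1, Young 2, Young 3, Old 1, Old 2 and Old 3, and 6.65 to 7.22 in Young 4, Young 5, Old 4 and Old 5. Within each age, the 3 arrays with high Slc6a3 were also the 3 with the highest C1qa. Slc6a3 itself differed little between the ages, by 0.11 (SE 0.53; limma adjusted p = 0.988). Within the 6 arrays of high Slc6a3 (3 of each age) the Old minus Young difference was 0.38 for C1qa, 0.29 for C1qb, 1.13 for C4b and 0.70 for C4a. Within the 4 arrays of low Slc6a3 (2 of each age) it was 0.28, 0.29, 1.13 and 0.90. In all 4 genes every Old value lay above every Young value, so a higher Old mean was fixed in advance for both ranges. Nothing is therefore read from the direction of these differences. Slc6a3 was also used as a covariate in the fit to all genes, in which 0.205% of all genes rose. It was picked after it was seen to follow C1qa and C1qb between the arrays of an age, so a smaller SE for these genes is built into that choice and nothing is read from their calls there; C4b and C4a kept differences of 1.12 and 0.78. The sources used here do not say what sets the 2 ranges apart.

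**Figure D4:**
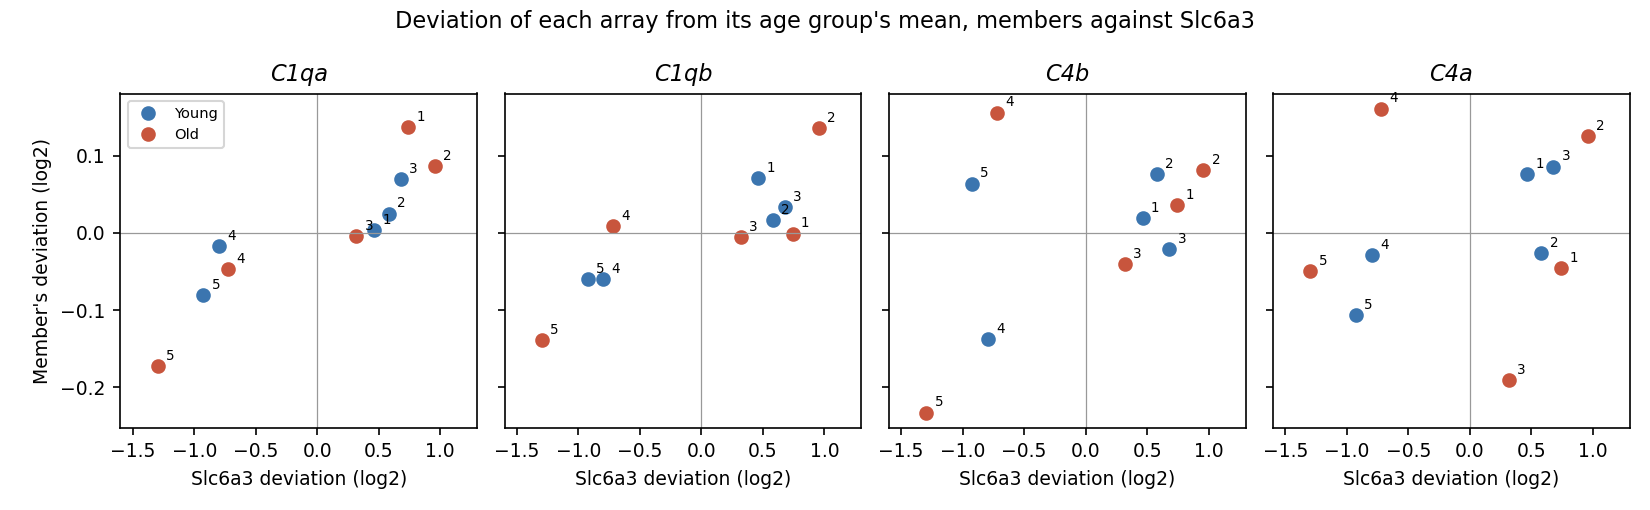
Deviation of each array from the mean of its age group in log2 units, for C1qa, C1qb, C4b and C4a (vertical axes) against Slc6a3 (horizontal axes), points numbered by replicate. Arrays 4 and 5 of both ages lie at the left for Slc6a3, and for C1qa all 4 of these deviations are below 0.

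Most other complement genes were flat in the deposited values, as most genes were. Of the 53 other complement genes analysed here, 52 were level only, where 98.6% of all genes were. The proteases next to C1q and C4 in the cascade, C1ra, C1rb, C1s1, C1s2 and C2, were level only at 5.74 to 6.26 log2, as were the lectin-pathway proteases Masp1 and Masp2, all 6 lectin recognition genes, Cfb and Cfp of the alternative pathway, and all 7 genes of the terminal pathway. The 18 measured regulators were level only as well. Among them were Clu (clusterin, 11.81), Susd4 (9.76), Csmd1 (9.34), Vtn (vitronectin, 9.31), Cr1l (the mouse regulator Crry, 8.70) and Serping1, the C1 inhibitor (7.50). Of the 13 receptors and binding partners, 12 were level only, among them C3ar1 (6.38), the receptor for the C3a fragment, and Itgam (7.14) and Itgb2 (6.51), which together form complement receptor 3.

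The 1 varying gene of this list was Calr, which encodes calreticulin, a chaperone that also binds C1q. It was 10.96 ± 0.034 log2 in Young and 10.91 ± 0.019 in Old (SD, n = 5), the ages overlapped, and it differed by -0.043 (SE 0.017; limma adjusted p = 0.686 over all genes, 0.182 in the varying-gene fit). Of the 53 genes 0 rose and 0 fell in limma, 3 had an unadjusted p under 0.05, and the median difference was -2e-06 log2, against -8.7e-08 over all genes; the median over all 5 members was 0.34, and over the 4 varying ones 0.56. Of 21 measured relatives that share the C1q domain, such as the cerebellins Cbln1 to Cbln4 and the synaptic organisers C1ql1 to C1ql4, 0 varied and 0 passed (3 with an unadjusted p under 0.05). These genes cannot show whether they changed, so no contrast between C4 or C1q and the rest of the cascade is drawn.

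**Figure D5:**
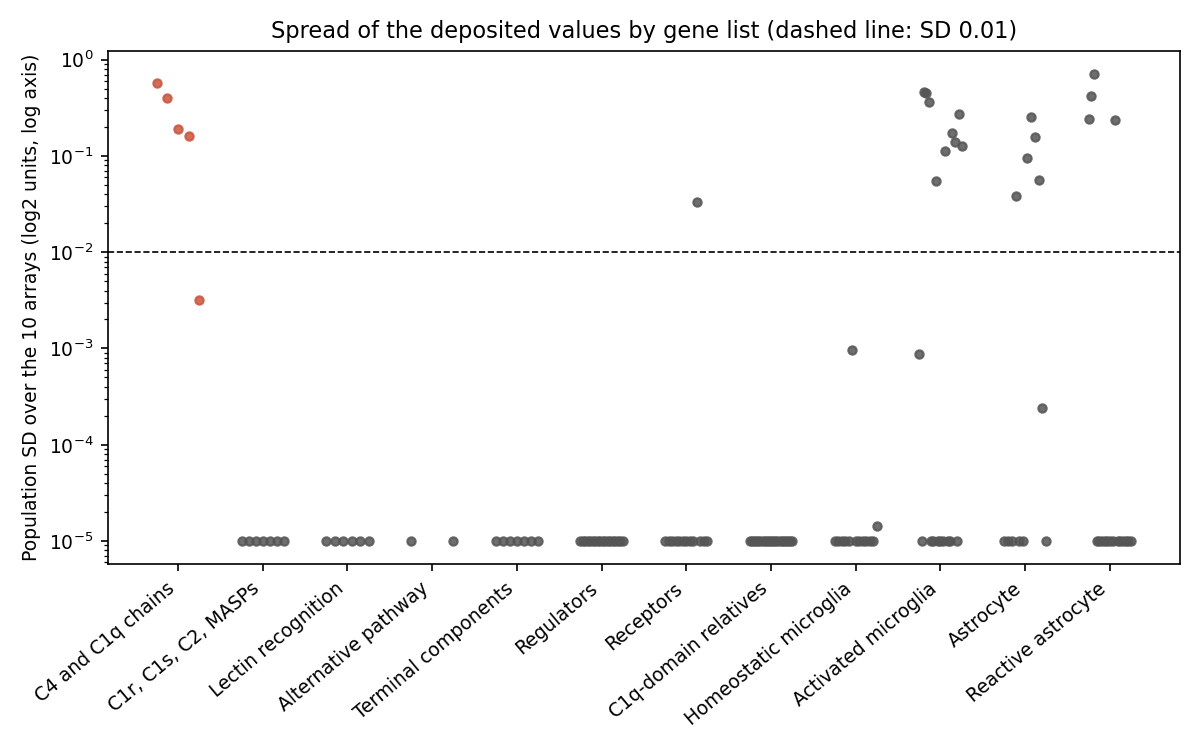
Population SD of each gene's 10 deposited values in log2 units (vertical axis, logarithmic) for the C4 and C1q genes, the other complement lists and 4 glial lists (horizontal axis), with the level-only minimum of 0.01 dashed. Nearly all complement genes sit at 1e-05; C1qc lies between these and the 4 varying members.

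The chromosomal neighbours of the members were nearly all level only, as were 98.6% of all genes, so no contrast with the members is drawn. Taking the 10 measured genes on each side in RefSeq order, 20 genes around C1qb, C1qc and C1qa on chromosome 4 had 0 varying genes. Of 21 around C4b and C4a on chromosome 17, a stretch that holds Cyp21a1, Stk19, Tnxb, Cfb and C2, 1 varied. That gene, Prrt1, which encodes a partner of AMPA receptors, was lower in Old by 0.19 without overlap (limma adjusted p = 0.209 over all genes). None of these neighbours passed over all genes in limma, and Prrt1 passed in the varying-gene fit (limma adjusted p = 0.00727).

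Glial marker genes moved beside the members, and their part in the result was not tested. In bulk tissue, more cells of a type and more RNA per cell cannot be told apart. Over all genes 1.42% varied, 0.19% rose and 0.0308% fell. The marker lists were chosen with earlier results of these data known, so nothing is read from their counts. Of 19 measured genes of activated microglia 9 varied, all higher in Old, and 5 of the 9 rose over all genes, among them Ctss by 0.91 (SE 0.047), Lyz2 by 0.84 (SE 0.10) and Fcgr3 by 0.50 (SE 0.074; limma adjusted p = 0.0408). Trem2, a microglial lipid receptor, passed too but was level only (0.0017 higher, limma adjusted p = 0.0101). The 10 level-only genes of this list were Trem2, Tyrobp, Cst7, Itgax, Lpl, Axl, Gpnmb, Ctsb, Ctsz and Fcer1g. The mean over the 19 was 7.547 to 7.585 log2 in the Young arrays and 7.724 to 7.805 in the Old. Spi1, which encodes PU.1, was higher by 0.18 (SE 0.059) without passing over all genes (limma adjusted p = 0.599; 0.0397 in the varying-gene fit).

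The 13 measured genes of homeostatic microglia, among them P2ry12 (8.29), Csf1r (8.24), Tmem119 (7.31) and Cx3cr1 (6.99), were level only and had a mean of 7.595 in every array, so they cannot show whether microglia were more numerous. Like C1qc, Aif1 of this list lay higher in all Old arrays on a narrow scale (by 0.0017 log2; limma adjusted p = 0.0604). Markers of border macrophages (7 measured, mean 6.153 in every array) and of neutrophils and lymphocytes (9 measured, 5.938) were level only. Of 17 measured reactive astrocyte genes 4 varied, all higher in Old, and 3 rose: Serpina3n by 0.81 (SE 0.083), H2-D1 by 0.46 (SE 0.032) and Gfap by 0.44 (SE 0.065). Of 12 measured general astrocyte genes 5 varied, 2 higher and 3 lower. Kcnj10 fell by 0.48 and Ntsr2 by 0.30, while Gja1 (-0.14) did not pass over all genes (limma adjusted p = 0.525), and Slc7a10 passed as a level-only gene (-0.00045; limma adjusted p = 0.015). Of 8 measured oligodendrocyte genes 4 varied, 2 higher and 2 lower, and 0 passed over all genes. Of 8 endothelial genes 1 varied, of 9 choroid plexus genes 7 and of 10 liver genes 3, and 0 of each passed over all genes.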

How the data were processed

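The 10 arrays (5 Young, 5 Old) were grouped by title. Per the labels' protocols, 100 ng of total RNA per sample was turned into biotin-labelled cDNA. The authors deposited a log2 value for each probe set on each array. Any background correction, normalization and summarisation followed a method not given in the sources used here. No detection call was used. Of 22206 probe sets, the platform annotation names 19572, reduced to 19505 genes. The number of arrays limits the precision.

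limma 3.58.1 (R 4.3.3; lmFit and eBayes, 2-sided) was fitted to all genes and to the 276 varying genes; the procedure was tested on simulated data. The genes, lists and settings were chosen with earlier results of these data known. Named genes are the members, every complement gene with an SD of at least 0.01, the 5 nearest genes by each likeness measure, and varying glial, choroid plexus and liver markers; level-only genes were added as examples after their values were seen. Settings changed the normalization, filter, prior, threshold, arrays, block and covariate. Promoters are RefSeq's, of GRCm38.p6; proteins were not used here.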

Additional observations from a re-analysis of the deposited data

How the results depend on the processing

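For C4b, C4a, C1qa and C1qb the ages did not overlap, so leaving out arrays or changing the filter, prior or threshold could not reverse a direction. Most alternatives were of these kinds, with 10 fits without 1 array in all genes and 10 in the varying genes. They are not separate tests. The differences of C4b and C4a kept their direction under all 33 alternatives each and passed in 32. The exception was the replicate block, with differences of 1.13 and 0.779 (limma adjusted p = 0.0508 and 0.126). It left 0 of the 5 members called, and C1qc at 0.00592 (limma adjusted p = 0.403). The share of all genes that passed with the block is not given here, so nothing is read from that count. The labels do not pair the ages, and deviations of equal numbers correlated at -0.22 to 0.28, so the main fit does not treat the numbers as pairs. The Old arrays that correlated best with Young 1 to Young 5 were Old 3, Old 3, Old 2, Old 5 and Old 5. Only Young 5 thus matched its own number, but each match stayed within numbers 1 to 3 or within 4 and 5. Slc6a3 and Th, which are among the genes correlated, were lower in numbers 4 and 5 than in 1 to 3 at both ages. Whether the numbers mark a shared step is not given in the labels.

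C1qa and C1qb were higher in Old under all 33 alternatives each and passed in 17. They did not pass in 16. Among these were the trended robust prior (limma adjusted p = 0.152 for each), no moderation (0.165 for each) and the replicate block (0.17 and 0.201). The 17 included all 10 fits of the varying genes without 1 array, and the fit to all genes without Old 5. They passed with median centring (0.339 and 0.29), quantile normalization (0.339 and 0.289), the Slc6a3 covariate, picked for following them, in all genes or the varying genes alone (0.331 and 0.283), the varying genes alone (0.341 and 0.291) and these without Young 3 and Young 5 (0.337 and 0.282). Centring, normalization and the covariate in all genes each gave 5 members called. Quantile normalization also called 10 other complement genes, all lower in Old, where 33.1% of all genes were lower; over all genes it called 154 higher and 6464 lower, against 37 and 6. Leaving out single arrays gave 1.09 to 1.19 for C4b, 0.738 to 0.826 for C4a, 0.307 to 0.384 for C1qa and 0.257 to 0.326 for C1qb. Over all genes these fits called 2 to 5 members, 5 without Old 5. The share of all genes that passed in these fits is not given here, so nothing is read from that count.

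The call of C1qc was lost at an adjusted p under 0.01, without moderation and with a trended robust prior (0.00592 in each), without Young 3 and Young 5 (0.00634), and without any single array other than Old 5 (0.00561 to 0.00659 over the 10). The cause of these changes was not tested. The count of 5 unequal pairs did not change in 12 alternatives. All of these but quantile normalization left out arrays. That cannot make the ages overlap in the pairs of a C4 gene with a C1q chain, so nothing is read from the unchanged count. Each member has 1 probe set, so no other could be tried. The Slc6a3 settings, and the varying genes alone with arrays left out, were added after the data were seen.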
